A study of Homo sapiens with 12 samples.

Results

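The 9 genes described here build and load the MHC class I complex: the heavy chains HLA-B, HLA-C, HLA-E and HLA-F, the light chain B2M, the peptide transporter subunits TAP1 and TAP2, the loading chaperone TAPBP, and NLRC5, which activates transcription of this gene group. They were chosen by gene symbol, and each symbol matched 1 of the 58884 rows of the deposited table. RNA was sequenced from KYSE70, an established human line of esophageal squamous cell carcinoma, in 12 libraries. The control group was 4 libraries of cells without treatment, for which the labels name no vehicle and give no culture time. Another 4 libraries came from cells given 10 µM pyrimethamine, an antifolate that inhibits dihydrofolate reductase, and 4 from cells given 20 nM mitoxantrone, a topoisomerase II poison, both with a treatment time of 72 h. All groups share 1 cell line, so no gene was compared between lines, and each drug was used at 1 dose and 1 time.

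Class I molecules display short peptides from the inside of a cell on its surface. Proteasomes cut proteins into peptides, the TAP1 and TAP2 heterodimer pumps them into the endoplasmic reticulum, and TAPBP (tapasin) holds an empty heavy chain with its light chain beside the transporter until a peptide is bound. Cytotoxic T cells read the loaded complex, and natural killer cells sense its loss. NLRC5 acts at class I promoters together with DNA-binding partners, and interferons and NF-kB raise the same genes.

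The stretch upstream of the start site is where these factors act, so it is shown for 5 of the genes: the classical heavy chains HLA-B and HLA-C, their light chain, and both ends of the range of change among the loading genes. Promoters came from RefSeq (GRCh38.p14), in which 7 of the 9 symbols had an entry. HLA-E and NLRC5 had none, and TAP1 had more than 1 start, of which the upstream one is printed. Each sequence is the 200 bases before the start, read 5′ to 3′ on the gene's strand. Capitals mark matches on either strand to GAAA, any 2 bases and GAAA again, the core of the interferon-stimulated response element (ISRE), or to the NF-kB consensus, and overlapping matches run together.
HLA-B (chr6:31357180-31357379, - strand): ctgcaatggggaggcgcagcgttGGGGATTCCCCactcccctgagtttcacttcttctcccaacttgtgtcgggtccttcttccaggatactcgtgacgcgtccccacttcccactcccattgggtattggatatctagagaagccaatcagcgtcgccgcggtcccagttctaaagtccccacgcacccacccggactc
HLA-C (chr6:31272093-31272292, - strand): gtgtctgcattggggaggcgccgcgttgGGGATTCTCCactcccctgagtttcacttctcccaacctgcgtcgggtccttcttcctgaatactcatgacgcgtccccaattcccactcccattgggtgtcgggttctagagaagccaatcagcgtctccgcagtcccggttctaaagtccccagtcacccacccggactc
B2M (chr15:44711317-44711516, + strand): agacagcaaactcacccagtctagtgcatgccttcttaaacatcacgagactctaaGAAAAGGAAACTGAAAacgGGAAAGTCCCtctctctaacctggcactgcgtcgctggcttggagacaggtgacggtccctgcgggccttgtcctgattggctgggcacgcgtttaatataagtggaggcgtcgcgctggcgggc
TAP1 (chr6:32853705-32853904, - strand): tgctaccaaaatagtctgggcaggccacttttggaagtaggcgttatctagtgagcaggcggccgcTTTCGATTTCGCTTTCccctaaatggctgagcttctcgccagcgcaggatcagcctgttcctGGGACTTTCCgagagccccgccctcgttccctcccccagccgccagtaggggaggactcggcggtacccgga
TAPBP (chr6:33314079-33314278, - strand): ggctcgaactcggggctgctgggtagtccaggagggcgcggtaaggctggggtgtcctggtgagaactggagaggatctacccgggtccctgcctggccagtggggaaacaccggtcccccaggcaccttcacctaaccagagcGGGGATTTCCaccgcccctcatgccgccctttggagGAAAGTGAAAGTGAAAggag

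Over a window from 250 bases before to 50 after the start, the ISRE core was found in B2M, HLA-F, TAP1, TAP2 and TAPBP and was not found in HLA-B or HLA-C. Sites that depart from this exact string are missed, so the lack of a match does not show that HLA-B or HLA-C has no ISRE. It was present in 3.57% of the 35116 promoters of the same length in that table. The NF-kB consensus was found in HLA-B, HLA-C, B2M, TAP1 and TAPBP, against 11.3% of all promoters. In HLA-B its matches overlap one another, as the capitals show. CCAAT, the core of the Y box bound by NF-Y, was found in HLA-B, HLA-C, HLA-F, B2M and TAP1, against 34.6% of promoters. TGACG, the core bound by CREB and ATF1, was found in HLA-B, HLA-C, B2M and TAP2, against 24.6%. TTCNNNGAA, the gamma-activated site, was found only at the downstream start of TAP1, against 7.66%. The printed stretches of HLA-B and HLA-C were 87.7% identical when aligned, and HLA-F was 80.8% identical to HLA-B, while B2M and HLA-B were 46.4% identical. A match of letters is a description, and binding was not measured.

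The libraries held 47465335 to 94516756 reads assigned to genes. All 12 squamous epithelial markers, among them KRT5 and TP63, averaged at least 10 normalized counts in each group. The 11 immune markers summed to 23.7 to 47.8 normalized counts per control library, 58.1 to 75.6 with pyrimethamine and 8.59 to 16.5 with mitoxantrone, with CD3D, MS4A1, LYZ and NKG7 at 0 in controls. The 8 fibroblast markers summed to 16889 to 17597, 11848 to 13230 and 5873 to 7647, with COL1A2, DCN and FAP at 0 in controls. COL1A1, a collagen chain, averaged 14955 in control, 11201 with pyrimethamine and 4430 with mitoxantrone, and COL3A1 2295, 1344 and 2171, so these 2 genes made up nearly all of that sum. The 6 endothelial markers summed to 967 to 1091, 1102 to 1193 and 186 to 252, with KDR and CLDN5 at 0 in controls. VWF alone averaged 1001, 1098 and 217. These sums moved between groups as several genes below did, and their part in the results was not tested. Nothing in the labels says whether replicates were grown as separate cultures, so the p-values measure the spread between these libraries, which may be technical.

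Under mitoxantrone all 9 genes were lower than in control (limma, Benjamini-Hochberg adjusted p under 0.05), where 35.8% of the 16950 genes tested were lower, 33.5% higher and 69.3% changed in either direction. The log2 changes ran from -2.53 for HLA-F to -0.16 for TAPBP, with a median of -0.96 against -0.0080 over all genes. NLRC5, HLA-B, HLA-C, HLA-E and B2M fell 1.93-fold to 2.28-fold, whereas TAP1, TAP2 and TAPBP fell 1.11-fold to 1.47-fold. In 8 of the 9 genes every mitoxantrone library lay below every control library, which held for 31% of all genes. TAPBP was the exception. HLA-F is in both counts, although it passed the filter through its control and pyrimethamine libraries alone. Its lower level with mitoxantrone was thus partly set by the filter.

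Changes with pyrimethamine went in both directions. B2M and HLA-C were higher than in control, NLRC5, HLA-E, TAP1, TAP2 and TAPBP were lower, and HLA-B and HLA-F were not called. That is 2 higher and 5 lower, where 26.4% of all genes were higher, 26.9% lower and 53.3% changed in either direction. The share higher was close to that of all genes and is not a result about the group. The HLA-C call was lost with libraries rescaled to the same total (limma adjusted p = 0.0873), which left B2M alone called higher. The TAP2 call (limma adjusted p = 0.0495) was lost under 11 of 25 alternatives. The median log2 change was -0.20 against 0.0018 over all genes, and libraries did not overlap in 6 of the 9 genes against 51.1% of all genes. Both drugs were compared with the same control libraries, so their changes are not independent of each other. In this bulk RNA, fewer cells that express a gene and less of its RNA per cell cannot be told apart.

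**Figure D1:**
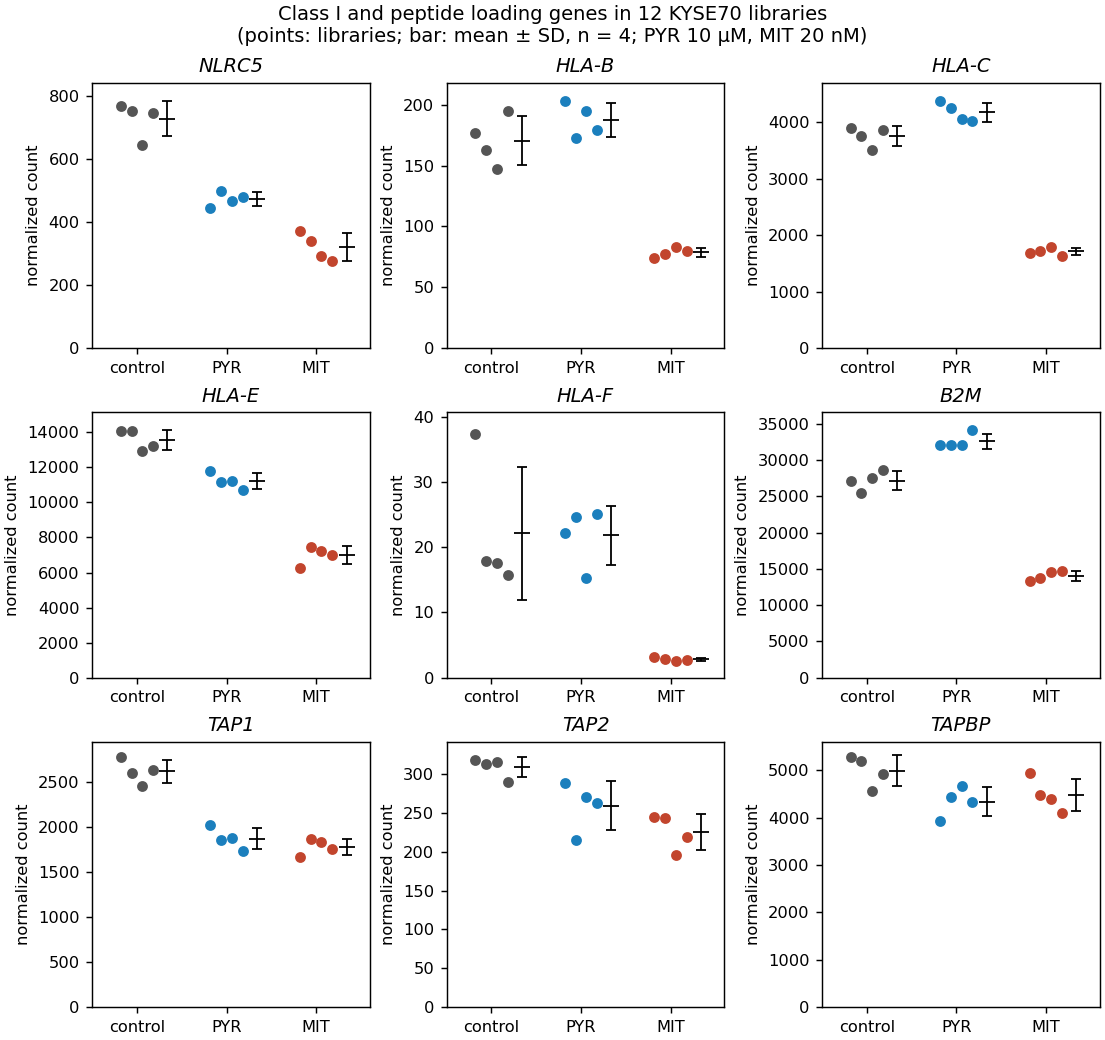
Normalized count (vertical axis, starting at 0) of each of the 9 genes in the 12 libraries, with points for libraries and bars for mean ± SD (n = 4) in control, pyrimethamine (PYR, 10 µM) and mitoxantrone (MIT, 20 nM). The mitoxantrone points lie below all control points in every panel except TAPBP, and the pyrimethamine points of B2M and HLA-C lie above them.

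The activator NLRC5 (chr16:56989485-57083531, + strand; GRCh38, GENCODE 29, as for the coordinates of all genes below) was measured at 766, 749.9, 644 and 744 normalized counts in the control libraries. With pyrimethamine it was 444, 499, 467 and 479, and with mitoxantrone 372, 339, 292 and 274. The 3 groups formed separate steps with no overlap, control highest and mitoxantrone lowest. The mean fell from 726 ± 55.7 in control (SD, n = 4) to 472 ± 22.8 with pyrimethamine, a log2 change of -0.62 ± 0.09 (SE; limma adjusted p = 7.76e-06). It fell to 319 ± 44.3 with mitoxantrone, a change of -1.19 ± 0.09 (limma adjusted p = 2.31e-10), and mitoxantrone was lower than pyrimethamine by -0.57 (limma adjusted p = 8.62e-06). All log2 changes are on the log2(value + 1) scale.

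HLA-B and HLA-C are the classical heavy chains described here, which present peptides to cytotoxic T cells. Per kb of principal transcript, HLA-B had 110.2 normalized counts in control, and HLA-C (chr6:31268749-31272130, - strand) had 2448. Its control libraries held 3907, 3766, 3507 and 3860.5 normalized counts, those with pyrimethamine 4379.8, 4251, 4063 and 4028, and those with mitoxantrone 1694, 1727, 1797 and 1640.3. The pyrimethamine libraries lay above the controls and the mitoxantrone libraries far below both. HLA-C rose by 0.15 ± 0.05 (SE) on the log2 scale with pyrimethamine (limma adjusted p = 0.00669), but after rescaling every library to 1 common total the change was 0.10 and was not called (adjusted p = 0.0873, range over alternatives 0.00199 to 0.0873). With mitoxantrone HLA-C was 2.19-fold lower than control, a log2 change of -1.13 ± 0.05 (limma adjusted p = 5.64e-15).

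HLA-B (chr6:31269491-31357188, - strand) was measured at 177, 163, 147 and 195 normalized counts in control, 203, 172, 194 and 179.6 with pyrimethamine, and 74.4, 77.3, 82.9 and 79.8 with mitoxantrone. Control and pyrimethamine overlapped, and mitoxantrone lay below both. The pyrimethamine change of 0.14 was not called, with a 95% interval of -0.13 to 0.41 (limma adjusted p = 0.377). Mitoxantrone lowered HLA-B 2.14-fold, a log2 change of -1.10 ± 0.13 (SE; limma adjusted p = 1.42e-07). The GENCODE 29 model of HLA-B extends over HLA-C, but only 35 exonic bases are shared on the same strand, which is 1.40% of the HLA-C exons. Exons of other genes cover 18.9% of the HLA-B exons in all, chiefly AL671883.2, which averaged 0.52, 1.44 and 0.86 normalized counts in control, pyrimethamine and mitoxantrone. Of the 50-base windows in the transcripts, 2.72% in HLA-B and 5.38% in HLA-C also occur in another gene, so the division of reads among HLA genes is uncertain. These windows come from reference transcripts. The alleles of this line were not examined, so reads lost or misassigned through them were not assessed.

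HLA-E (chr6:30489467-30494205, + strand), which presents leader peptides of other class I chains to natural killer cell receptors, held 14064, 14089, 12966.5 and 13239 normalized counts in control. It held 11777, 11194.5, 11249 and 10691 with pyrimethamine, and 6262, 7448, 7241 and 7018 with mitoxantrone. No library of one group reached the range of another. HLA-E fell by 0.28 on the log2 scale with pyrimethamine (SE 0.05, limma adjusted p = 4.66e-05) and by 0.96 with mitoxantrone (limma adjusted p = 1.68e-13). Its direction with pyrimethamine was the reverse of that of HLA-C, and the difference between the 2 genes was not tested. Windows shared with other genes made up 4.34% of its transcripts, chiefly with HLA-G.

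HLA-F (chr6:29722775-29738528, + strand), a non-classical heavy chain, was near the lower limit of measurement. Control libraries held 37.4, 17.8, 17.6 and 15.8 normalized counts, pyrimethamine libraries 22.3, 24.6, 15.4 and 25.2, and mitoxantrone libraries 3.10, 2.86, 2.47 and 2.69. Control replicate 1 stood apart from the other controls, and all mitoxantrone libraries were low, at 2 or 3 reads each. In total, 96 reads were counted in control, 88 with pyrimethamine and 11 with mitoxantrone. The ratio of control to mitoxantrone, from summed reads scaled by library, was 7.99, with a 95% interval of 4.27 to 16.5 that covers counting error only. The fitted change with mitoxantrone was -2.53 ± 0.37 (SE; limma adjusted p = 3.27e-06), and it shrank to -1.29 with a pseudocount of 10 and to -1.56 under quantile normalization. HLA-F entered the test through its control and pyrimethamine libraries alone, since a gene needed at least 10 normalized counts in 4 libraries. With pyrimethamine the change was 0.04 and was not called, with a 95% interval of -0.73 to 0.81. Exons of other genes cover 28.5% of the HLA-F exons, among them the antisense gene HLA-F-AS1 at 19.3, 15.2 and 9.30 normalized counts, and the strand setting of the counting is not given in the sources used here.

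B2M (chr15:44711487-44718877, + strand), the light chain of the class I complex, had the highest normalized counts per kb of principal transcript among the 9 genes. Its control libraries held 27076.5, 25488, 27525.5 and 28592.5 normalized counts, those with pyrimethamine 32125, 32082, 32074 and 34132, and those with mitoxantrone 13273, 13745, 14541 and 14685. All 4 pyrimethamine libraries were above the highest control, and all 4 mitoxantrone libraries were well below the lowest. B2M rose 1.20-fold with pyrimethamine, a log2 change of 0.26 ± 0.04 (SE; limma adjusted p = 1.45e-05). B2M fell by 0.95 with mitoxantrone (limma adjusted p = 2.25e-14), so that mitoxantrone stood 2.32-fold below pyrimethamine (log2 difference -1.21, limma adjusted p = 1.06e-16). No exon of another gene overlaps it, and none of its 50-base windows occurs elsewhere.

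**Figure D2:**
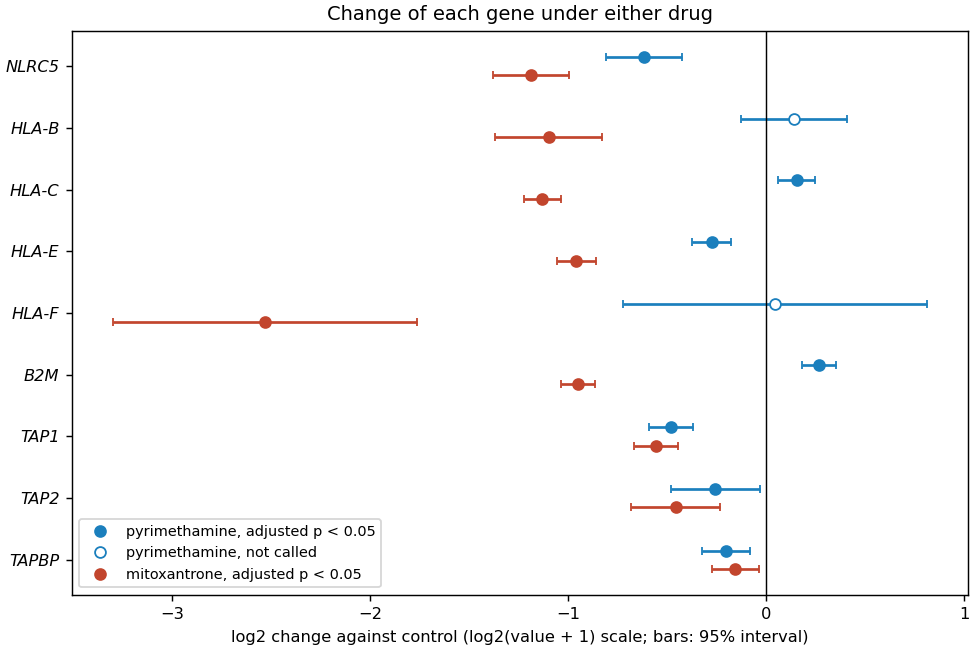
Log2 change against control (horizontal axis, log2(value + 1) scale) of each gene under pyrimethamine and mitoxantrone, with 95% intervals and open points for changes that were not called. Every mitoxantrone point lies below 0, while B2M and HLA-C lie above 0 with pyrimethamine at 0.26 and 0.15 and NLRC5 below it at -0.62.

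TAP1 (chr6:32845209-32853978, - strand), a subunit of the peptide transporter, held 2779, 2602, 2455 and 2638 normalized counts in control, 2027, 1852, 1880.2 and 1734 with pyrimethamine, and 1668, 1865, 1833 and 1757 with mitoxantrone. Both drugs gave a similar range that lay wholly below the controls. TAP1 fell by 0.48 on the log2 scale with pyrimethamine (SE 0.05, limma adjusted p = 1.44e-07) and by 0.56 with mitoxantrone (limma adjusted p = 7.23e-09). The difference between the drugs was -0.07, with a 95% interval of -0.18 to 0.04 (limma adjusted p = 0.225). That difference was called under upper-quartile scaling, at -0.13, and under quantile normalization, at -0.14. Exons of the antisense gene PSMB8-AS1, at 22.5, 7.42 and 10.5 normalized counts in control, pyrimethamine and mitoxantrone, cover 9.49% of the TAP1 exons.

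TAP2 (chr6:32821833-32838780, - strand), the partner subunit, was less abundant. It held 318, 314, 316 and 289.9 normalized counts in control, 289, 216, 271 and 263 with pyrimethamine, and 245, 243, 195 and 219.7 with mitoxantrone. The lowest control and the highest pyrimethamine library nearly touched, and the drugs overlapped each other. The mitoxantrone change was -0.46 ± 0.11 (SE; limma adjusted p = 7.88e-04), and it was -0.24 and not called under quantile normalization (adjusted p = 0.0587, range over alternatives 7.62e-05 to 0.0587). With pyrimethamine it was -0.26 ± 0.11 and just inside the threshold (limma adjusted p = 0.0495). That call was lost under 11 of 25 alternatives, and without pyrimethamine replicate 2, the lowest of its group, the change was -0.17 (adjusted p = 0.195, range over alternatives 0.0188 to 0.195). AL669918.1, annotated over 32.3% of the TAP2 exons on the same strand, had no reads in any library.

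TAPBP (chr6:33299694-33314387, - strand), the tapasin chaperone, had the smallest change with mitoxantrone. Control libraries held 5281, 5187, 4553 and 4928 normalized counts, pyrimethamine libraries 3922, 4431, 4659 and 4318, and mitoxantrone libraries 4934, 4486, 4384 and 4104. The lowest control lay inside the range of both drugs. TAPBP fell by 0.20 on the log2 scale with pyrimethamine (SE 0.06, limma adjusted p = 0.00537) and by 0.16 with mitoxantrone (limma adjusted p = 0.0210). The mitoxantrone call was lost without control replicate 1 (-0.13, adjusted p = 0.0786), without control replicate 2 (-0.14, adjusted p = 0.0665), without mitoxantrone replicate 4 (-0.12, adjusted p = 0.0868) and without a variance trend (adjusted p = 0.0766), over a range of 6.79e-04 to 0.0868. With libraries rescaled to the same total the change was -0.26.

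Set directly against pyrimethamine, mitoxantrone gave lower levels of NLRC5, HLA-B, HLA-C, HLA-E, HLA-F and B2M, 6 of the 9 genes, where 39.5% of all genes were lower, 36.9% higher and 76.4% changed in either direction. In all 6 every mitoxantrone library lay below every pyrimethamine library, against 35.5% of all genes. HLA-F is among the 6, and it passed the filter through its control and pyrimethamine libraries alone. TAP1, TAP2 and TAPBP were not called, with a TAP2 difference of -0.20 and a 95% interval of -0.42 to 0.03, and a TAPBP difference of 0.05 and an interval of -0.07 to 0.17. The TAP2 difference was called with libraries rescaled to the same total (-0.24, adjusted p = 0.0493), under upper-quartile scaling (-0.26, adjusted p = 0.0372) and without pyrimethamine replicate 2 (-0.29, adjusted p = 0.0224). Under quantile normalization it was 0.015 (adjusted p = 0.908), the other end of its range over alternatives. The lowest-to-highest order of the 6 changes ran from HLA-F at -2.57 through HLA-C at -1.29, HLA-B at -1.24, B2M at -1.21 and HLA-E at -0.69 to NLRC5 at -0.57.

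Levels were compared between genes only per kb of each gene's principal transcript. In control, B2M was highest at 15936 normalized counts per kb, followed by HLA-E at 5225, TAPBP at 2642, HLA-C at 2448, TAP1 at 885, TAP2 at 124, HLA-B at 110.2, NLRC5 at 106 and HLA-F at 13.6. Neighbours in this order had overlapping libraries between TAPBP and HLA-C, between TAP2 and HLA-B, and between HLA-B and NLRC5. In pyrimethamine HLA-C passed TAPBP and HLA-B passed TAP2, and in mitoxantrone the control order held. With the length of all merged exons in place of 1 transcript, HLA-E came before B2M, HLA-C before TAPBP and NLRC5 before HLA-B and TAP2, so these ranks depend on the length used.

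**Figure D3:**
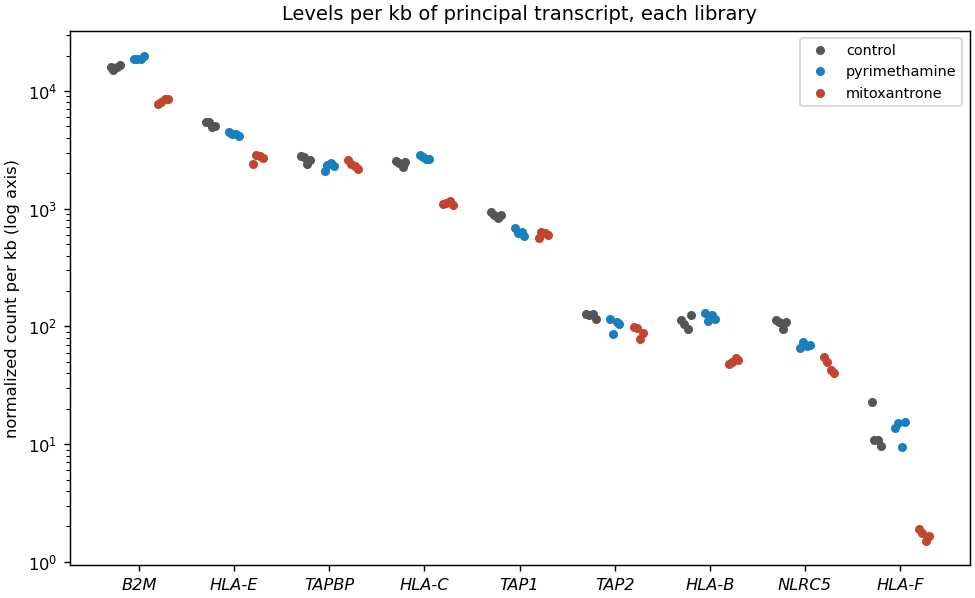
Normalized count per kb of principal transcript (vertical log axis) of the 9 genes in each library, ordered by the control mean, with colours for control, pyrimethamine and mitoxantrone. B2M stands highest and HLA-F lowest in all 3 groups, and the mitoxantrone points of HLA-C drop below those of TAPBP.

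Ratios of genes within a library do not depend on how that library was scaled. The HLA-B to HLA-C ratio was 0.0452 ± 0.0038 in control (SD, n = 4), 0.0448 ± 0.0031 with pyrimethamine and 0.0459 ± 0.0021 with mitoxantrone. B2M to the sum of HLA-B and HLA-C was 6.92 ± 0.470, 7.48 ± 0.475 and 7.85 ± 0.468 in the same order, and TAP1 to TAP2 was 8.48 ± 0.571, 7.28 ± 0.885 and 7.96 ± 1.07. Groups overlapped in all 3 of these ratios. TAPBP to TAP1 was 1.90 ± 0.0627 in control, 2.32 ± 0.263 with pyrimethamine and 2.52 ± 0.292 with mitoxantrone, and every mitoxantrone library lay above every control library. That contrast gave the smallest p that 4 against 4 libraries allow in a two-sided exact permutation test, p = 0.0286, and an adjusted p of 0.229 over the 12 ratio tests. No ratio passed after adjustment, and 1 of the 12 had an unadjusted p under 0.05. With that smallest p, at least 7 of the 12 tests would have to reach it for any to pass, so the lack of a call says little. The difference in the HLA-B to HLA-C ratio between mitoxantrone and control was 0.03 on the log2 scale (SE 0.07, exact p = 0.657). Whether reads of HLA-C were counted as HLA-B was not tested.

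Further ratios, added once the values had been seen, are given with no test. B2M to TAP1 was 10.4 ± 0.741 in control, 17.5 ± 1.61 with pyrimethamine and 7.90 ± 0.407 with mitoxantrone. HLA-C to TAP1 was 1.44 ± 0.0249, 2.24 ± 0.0868 and 0.964 ± 0.0420. In these 2 ratios to TAP1 the 3 groups stood apart, with pyrimethamine highest and mitoxantrone lowest. B2M to NLRC5 was 37.6 ± 3.89, 69.2 ± 3.57 and 44.9 ± 8.20, again highest with pyrimethamine. There mitoxantrone, at 35.7 to 53.5, overlapped control, which reached 42.8.

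**Figure D4:**
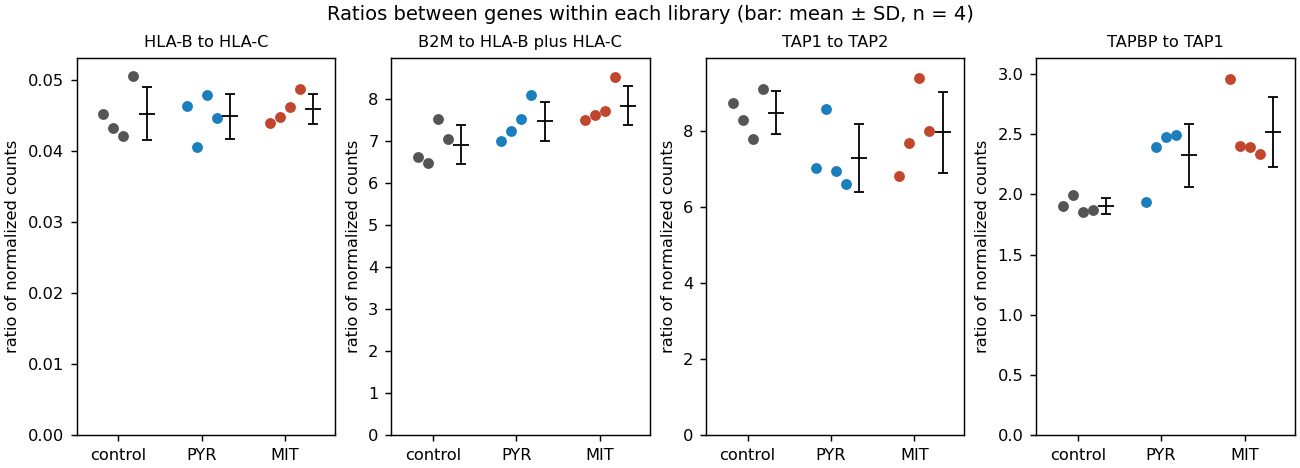
Ratios of normalized counts (vertical axes from 0) for 4 gene pairs in each library, with mean ± SD (n = 4) for control, pyrimethamine (PYR) and mitoxantrone (MIT). HLA-B to HLA-C stays near 0.045 in all groups, and TAPBP to TAP1 is 1.90 in control and 2.52 with mitoxantrone.

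The genes around class I presentation were examined in lists. Each list's counts stand against the shares of all tested genes given above, 35.8% lower and 33.5% higher with mitoxantrone and 26.9% lower and 26.4% higher with pyrimethamine, and a share near those is not a result about the list. HLA-V, RAET1E, FCGRT, HLA-DMB, HLA-DRB1, HLA-DPB1 and CIITA had no mitoxantrone library at 10 normalized counts or more. Like HLA-F they entered the test through control and pyrimethamine libraries alone, so that a lower level with mitoxantrone was partly set by the filter. Of 9 genes that supply peptides, 5 fell with mitoxantrone, 1 rose and 3 were not called, with a median of -0.23, and the share called was close to that of all genes. The immunoproteasome subunits PSMB8 and PSMB9, encoded beside TAP1 and TAP2, fell (-2.43 and -1.70, limma adjusted p = 8.93e-05 and 1.29e-13), and PSME1, a proteasome activator subunit, rose by 0.24. PSMB8 was scarce, at 30.9 normalized counts in control and 6.35 with mitoxantrone, where 1 library reached 10. Exons of other genes, PSMB9 among them, cover 20.6% of the PSMB8 exons. With pyrimethamine PSMB10 (-0.71), ERAP1 (-0.66) and PSMB9 (-0.64) fell and PSME2 (0.38) rose, while 5 were not called. Exons of another gene cover 34.8% of the PSMB10 exons. ERAP1 trims peptides inside the endoplasmic reticulum. Of the 3 constitutive proteasome subunits that the immunoproteasome replaces, PSMB6 (0.28) and PSMB7 (0.11) rose and PSMB5 (-0.17) fell with mitoxantrone, and PSMB7 was -0.022 under quantile normalization.

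Of 6 folding and export helpers, TAPBPL, a tapasin relative that edits bound peptides, fell with pyrimethamine (-1.33) and with mitoxantrone (-1.77). It went from 73.3 normalized counts in control to 28.3 and 20.5. CANX, a lectin chaperone, and BCAP31, an export receptor, fell with pyrimethamine (-0.21 and -0.15) and rose with mitoxantrone (0.16 and 0.21), and UGGT1, which tags unfinished glycoproteins for refolding, fell with mitoxantrone (-0.30). Under quantile normalization CANX was -0.17 with mitoxantrone, and 5 of the 6 helpers were called lower and none higher.

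Only 5 of 11 other HLA class I genes, most of them pseudogenes, were abundant enough to test. With pyrimethamine the pseudogene HLA-V rose by 2.14, and the other 4 were not called. With mitoxantrone 4 fell and 1, HLA-J, was not called (-0.63). HLA-V averaged 78.8 normalized counts with pyrimethamine and 0.463 with mitoxantrone, and its fitted mitoxantrone change was -3.70, from 79 reads in control and 2 with mitoxantrone, a scaled ratio of 36.2 with a 95% counting interval of 9.68 to 304. HLA-G, a non-classical heavy chain, fell with mitoxantrone by 1.15 but was not called under quantile normalization, where 2 of these 5 were called lower.

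Of 14 class I-like molecules, 11 fell and 2 rose with mitoxantrone, against 35.8% and 33.5% of all genes, and 4 fell and 6 rose with pyrimethamine, against 26.9% and 26.4%. The 11 include RAET1E and FCGRT, whose lower level with mitoxantrone was partly set by the filter, as said above. RAET1G and RAET1E, ligands of the natural killer receptor NKG2D, had the largest falls with mitoxantrone (-3.60 and -3.03) and rose with pyrimethamine (1.33 and 2.19). RAET1E averaged 11.0 normalized counts in control and 0.533 with mitoxantrone, from 45 and 2 reads, a scaled ratio of 20.6 with a 95% counting interval of 5.38 to 175. ULBP1, a ligand of the same receptor, went the other way, from 298 normalized counts in control to 87.5 with pyrimethamine (-1.76) and 721 with mitoxantrone (1.29). HFE, which regulates iron uptake, rose with mitoxantrone (0.62) and fell with pyrimethamine (-0.25). Exons of other genes cover 35.8% of RAET1E.

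MHC class II genes were scarce in these cells, and 6 of 13 were tested, 4 of them with every mitoxantrone library under the filter. With mitoxantrone 5 fell, with fitted changes of -4.47 for HLA-DMB and -4.15 for HLA-DRB1, and CIITA, the class II activator related to NLRC5, was not called (-0.86). HLA-DMB had 89 reads in control and 0 with mitoxantrone, which makes it at least 27.2-fold lower if 3 reads are taken as the floor of the group. HLA-DRB1 had 84 reads in control and 1 with mitoxantrone, a scaled ratio of 76.9 with a 95% counting interval of 13.4 to 3072. HLA-DQB1 held 144, 199 and 13.0 normalized counts in control, pyrimethamine and mitoxantrone. None of the 6 was called with pyrimethamine by limma, and 1, HLA-DQB1, had an unadjusted p under 0.05. Up to 4 were higher under alternatives, and edgeR and DESeq2 each called 1.

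**Figure D5:**
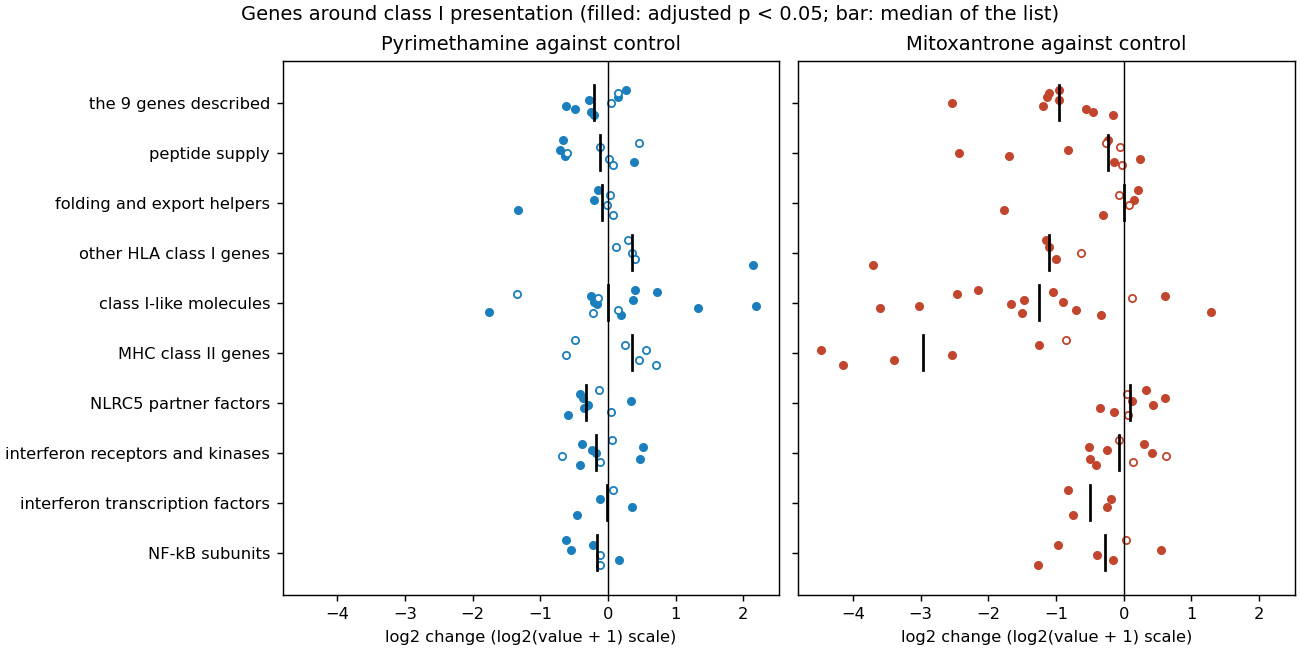
Log2 change against control (horizontal axes, log2(value + 1) scale) of each tested gene in 10 lists, for pyrimethamine on the left and mitoxantrone on the right, with filled points for called genes and a bar at each list's median. The median of the 9 genes is -0.20 on the left and -0.96 on the right, and that of the 6 class II genes tested is -2.97 on the right, where 4 of the 6 passed the filter only through control and pyrimethamine libraries.

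Of 8 DNA-binding partners of NLRC5 and their subunits, 4 rose and 2 fell with mitoxantrone, where 69.3% of all genes were called in either direction. NFYA (0.61) and NFYC (0.44), subunits of NF-Y, had the largest rises, and RFX5 (-0.34) and RFXANK (-0.14) fell. With pyrimethamine 5 fell and 1 rose, with RFXAP (-0.60) and CREB1 (-0.42) lowest and NFYB at 0.34. RFX5, the DNA-binding subunit of the RFX complex, was thus lower with both drugs (-0.36 with pyrimethamine).

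None of 8 interferon ligand genes had enough counts to be tested, with group means of at most 8.61 normalized counts for IFNE and 0 for IFNB1. Of 9 interferon receptor and kinase genes, 2 rose and 4 fell with each drug. With mitoxantrone the share called was close to the 69.3% of all genes and is not a result about these genes. With pyrimethamine it was somewhat above the 53.3% of all genes, and with so few genes it is not read as a result either. IFNGR1, a subunit of the interferon gamma receptor, and JAK1, a kinase shared by interferon receptors, rose with pyrimethamine (0.52 and 0.47) and fell with mitoxantrone (-0.51 and -0.49). TYK2 and IFNAR2 had the largest falls with pyrimethamine (-0.41 and -0.39), and IFNLR1 and IFNAR2 rose with mitoxantrone (0.42 and 0.30). Exons of other genes cover 83.2% of the IFNAR2 exons, so the source of its reads is uncertain.

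All 4 tested of 7 interferon transcription factor genes fell with mitoxantrone, with IRF1 (-0.82) and STAT2 (-0.75) lowest. With pyrimethamine STAT2 (-0.46) and IRF2 (-0.11) fell, IRF3 (0.36) rose, and IRF1 was not called (0.08). IRF2 was not called under upper-quartile scaling or quantile normalization, nor without control replicate 1, control replicate 2 or pyrimethamine replicate 2, which left 1 of the 4 called lower. Of 5 feedback inhibitors, 4 fell with mitoxantrone, led by USP18 (-1.05) and SOCS1 (-0.50). USP18 (-0.21) fell and PIAS1 (0.13) rose with pyrimethamine.

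Of 6 NF-kB subunits and inhibitors, 4 fell with mitoxantrone, led by RELB (-1.26) and NFKB2 (-0.97), and NFKBIA, the inhibitor that NF-kB itself induces, rose (0.55). With pyrimethamine NFKB1 (-0.63), NFKBIA (-0.55) and NFKB2 (-0.22) fell and RELA (0.16) rose. In the direct comparison of mitoxantrone with pyrimethamine 4 of these 6 were lower and 2 higher.

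The nearest tested gene on either side of each of the 9 genes did not share 1 direction (below and above here mean lower and higher coordinates). With mitoxantrone SPG11 (0.49) and TRIM69 (0.55), which flank B2M, rose, as did ZBTB22 (0.97), which starts beside TAPBP, RANP1 (0.85) below HLA-E, HERPUD1 (0.17) below NLRC5, and RPL3P2 (0.80), which lies inside the HLA-B model. RGL2 (-0.77) next to TAPBP, CPNE2 (-0.51) above NLRC5, GNL1 (-0.10) above HLA-E and HLA-F-AS1 (-1.57) fell. PSMB9 and PSMB8, which border TAP1 and TAP2, also fell (-1.70 and -2.43). HLA-DMB, 80650 bases from TAP1, and HLA-DQB1, 153449 bases from TAP2, lie farther off and fell as well (-4.47 and -3.40). SUMO2P1 below HLA-F (0.51) and AL662844.4 below HLA-C (0.53) were not called. With pyrimethamine SPG11 fell by 0.70 while B2M, 47808 bases away, rose.

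Likeness to the 9 genes was measured as Pearson's r over the 12 libraries with the mean of their standardized log2 levels, among 12089 other genes that averaged 100 normalized counts or more. The highest values belonged to EEPD1 (0.991), NFKB2 (0.989), SCN4B (0.989), GLIPR2 (0.989) and PML (0.987). With group means removed the same r was 0.60, 0.70, 0.69, 0.54 and 0.63, so part of each value comes from the group averages that the libraries share. NFKB2 stepped down from 4863 ± 223 normalized counts in control to 4177 ± 169 with pyrimethamine and 2486 ± 47.3 with mitoxantrone, and PML, the scaffold of nuclear bodies, from 5832 ± 245 to 4918 ± 184 and 3701 ± 75.5. Among the 9 genes themselves, r with the mean of the other 8 was highest for HLA-E (0.971) and NLRC5 (0.945) and lowest for TAPBP (0.362). With group means removed the order was another, with NLRC5 highest (0.60), HLA-E at 0.092, TAPBP at 0.16 and B2M lowest (-0.56). These values are descriptions over libraries that share groups.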

How the data were processed

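The deposited table gives a signal per gene and library, normalized read counts that the authors had divided by 1 factor per library. Per the submitters' processing notes, the tools were featureCounts 1.5.1, STAR 2.6.90c, cutadapt 1.12 and FastQC 0.11.5, with the builds mm10 and hg38. The normalization tool, strand setting and handling of reads over several genes are not given in the sources used here. Each library's factor was inferred from the values themselves, with the smallest nonzero value first taken as 1 read and the step then refitted. Multiplying by it gave whole reads for 100.0% of values (within 0.01 read), values without reads included. The recovered reads came to 47465335 to 94516756 per library.

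Genes with at least 10 normalized counts in at least 4 libraries (16950) were tested with limma 3.58.1 (empirical Bayes with a variance trend) on log2(value + 1) in R 4.3.3, over all 12 libraries with group as the factor. P-values were adjusted by Benjamini-Hochberg over all genes tested, with calls under 0.05. Ratios were tested by two-sided exact permutation of 4 against 4 libraries (70 arrangements), adjusted over 12 tests. On the recovered reads, edgeR 4.0.16 called 9286, 11765 and 12943 genes for pyrimethamine against control, mitoxantrone against control and mitoxantrone against pyrimethamine, DESeq2 1.42.0 called 9318, 11834 and 12960, and limma 9042, 11745 and 12956. Other pseudocounts, filters, scalings, variance models, a replicate block and leaving out each library were tried as alternatives. The limma script was tested on simulated data.

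Coordinates came from GENCODE 29 (GRCh38), where 58611 of 58884 identifiers were found, and exon overlaps ignore strand unless stated. The overlaps given above are not a full list. Exons of other genes also cover 48.9% of HLA-J, 32.3% of PIAS1, 25.8% of HLA-G, 23.4% of CIITA, 23.3% of RFXANK and 22.0% of IRF1, among others. The annotation the authors used may differ. Named from each list were the 2 called genes with the largest rise and the 2 with the largest fall per comparison, and any gene in a count of 3 or fewer. The nearest tested genes and the 5 most alike in profile were also named, and any further gene was picked with its values in view. After the values had been seen, 3 genes were taken out of the lists and markers and are not reported here. The 9 genes and all lists were chosen with earlier results of these data known.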

Additional observations from a re-analysis of the deposited data

Results flagged for a closer look

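In 39 sets of 4 libraries (9 genes and 4 log2 ratios in 3 groups), Dixon's test at the 95% level marked 5 in which 1 library lay far from the other 3. Chance marks about 1 in 20 such sets. HLA-F was high in control replicate 1, at 37.4 normalized counts against 15.8 to 17.8 in the other controls. Without that library its log2 change with pyrimethamine was 0.31 in place of 0.04, and without control replicate 4 it was -0.083, neither of them called. B2M was high in pyrimethamine replicate 4, at 34132 normalized counts against 32074 to 32125. TAP2 was low in control replicate 4, at 289.9 against 314 to 318. The log2 ratio of TAPBP to TAP1 was low in pyrimethamine replicate 1, at 0.952 against 1.26 to 1.32, and high in mitoxantrone replicate 1, at 1.56 against 1.22 to 1.27. Without these libraries in turn, every alternative that leaves out 1 library kept the sign of the log2 change of TAP2 and B2M, and the causes were not tested.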

How the results depend on the processing

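Of 672 recomputed log2 changes of the 9 genes, 650 kept their side of the threshold, 17 lost the threshold, 5 gained it and none that was called changed sign. Some alternatives cannot move the log2 change, such as other filters, other variance models, the replicate block and leaving out a library not compared. There only the adjusted p could change, so a kept sign says nothing. Changes that were not called did change sign: HLA-F with pyrimethamine, at 0.04, ran down to -0.12 under quantile normalization, TAP2 between the drugs, at -0.20, came to 0.015 under the same, and TAPBP between the drugs, at 0.05, came to -0.010 under upper-quartile scaling. With pyrimethamine 6 to 7 of the 9 genes were called, with mitoxantrone 8 to 9, and between the drugs 5 to 8. With libraries rescaled to the same total, only 1 gene was called higher with pyrimethamine, since HLA-C was no longer called. That scaling moved the median log2 change of all genes under mitoxantrone from -0.0080 to -0.11 and the numbers of genes called from 5681 higher and 6064 lower to 4420 and 7210. Reversed under quantile normalization were CALR with pyrimethamine (-0.087), CANX (-0.17), PSMB7 (-0.022) and PDIA3 (-0.11) with mitoxantrone, and PDIA3 between the drugs (-0.00018). Replicate numbers do not pair the libraries, since deviations of same-numbered libraries correlated at -0.013 to 0.029. With a replicate block 6, 9 and 6 genes were called, and only TAP2 with pyrimethamine was lost (adjusted p = 0.0583). No other call on the 9 genes changed under the block. With groups of equal size a block cannot alter the difference in ratio, so the kept values say nothing about pairing. Leaving out 1 library at a time gave 6 to 7, 8 to 9 and 6 to 7 called genes. With a mean of 100 or more required, HLA-F could not be tested. HLA-F, at 2 or 3 reads per mitoxantrone library, is limited by depth, and its log2 change with mitoxantrone ran from -2.996 to -1.29 over the alternatives.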
